A study of Mus musculus with 4 samples.

Results

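The genes described are 40 genes of the contractile cytoskeleton, of serum response factor (SRF) signalling and of YAP signalling. They were chosen by name: smooth muscle and actin cytoskeleton genes, SRF with its cofactor Mkl1 (named Mrtfa in GENCODE M21) and targets of YAP and TEAD. Earlier results of these data were known when the list was chosen, so its shares beside those of all genes are descriptive. Of the 40 genes, 38 reached at least 1 FPKM (fragments per kilobase of exon, scaled to the total of fragments assigned in that library) in 1 or more of 4 libraries, out of 12817 such genes among 55573 in all. The other members, the cardiac actin gene Actc1 and the actin-binding protein gene Synpo2, stayed below 1 FPKM in every library, at 0.14 FPKM or less for Actc1 and 0.81 or less for Synpo2. Of the 38, 34 reached 1 FPKM in all 4 libraries, and Acta1, Myh11, Des and Ankrd1 in 3, so none entered through a single high library.

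RNA was sequenced from primary MEFs, fibroblasts taken from mouse embryos into culture, and all cultures were kept for 24 h in 100 nM SAG, which activates the Hedgehog transducer Smoothened. The 4 groups were Dyrk2 knockout cells, wild-type cells, wild-type cells with an siRNA against Dyrk2 (siDyrk2) and wild-type cells with a negative-control siRNA (siNeg), and DYRK2 is a protein kinase that the series studies as a regulator of Hedgehog signalling through GLI2 and GLI3. Each group held 1 library, so no difference below has a replicate check and no test was made. The labels give neither the strain, age or number of embryos, nor the time since siRNA transfection, nor the sequence of either siRNA, and whether cultures share an embryo is not labelled.

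Actin filaments are moved by myosin II and held by tropomyosin, calponin and adhesion proteins, and fibroblasts that assemble them into stress fibres take on smooth muscle actin and transgelin, the usual marks of a myofibroblast. SRF is the transcription factor that drives many of these genes through a DNA element called the CArG box, and its cofactors of the MRTF family are held in the cytoplasm by unpolymerized actin. YAP and TAZ are coactivators that act through TEAD factors, are restrained by the LATS kinases of the Hippo pathway, and respond to some of the same mechanical inputs.

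The CArG box was looked for in the RefSeq promoter windows (GRCm38.p6) of 36 of the 40 genes, each from 250 bases before to 50 bases after a transcription start. The box is an SRF site of CC, 6 bases of A or T and GG, and reads as a CArG box on both strands. Only exact matches were counted, so a near match with another letter is missed. It was present for 9 of 36 genes (25%), against 1.81% of 27025 genes with a window. The TEAD word CATTCC, or GGAATG on the other strand, was present for 17 of 36 genes (47.2%), against 16.6% of all genes. Acta1 and Vcl held both, and the CArG and TEAD letters do not overlap there. Actb, Actg2, Tagln and Myh11 had no window in the table. A match is a run of letters and not a measured binding site. The members were chosen in part as targets of SRF or of YAP and TEAD. Shares above those of all genes thus follow in part from the choice of list.

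The windows of 4 genes are shown as examples. They are Acta1 (the largest siDyrk2 ratio of the members, chr8:123894726-123895025, minus strand) and Acta2 (the most abundant muscle actin, chr19:34255324-34255623, minus strand). The others are Srf (the transcription factor itself, chr17:46556113-46556412, minus strand) and Ankrd1, a classical YAP target (chr19:36119795-36120094, minus strand). Capitals mark CArG boxes and TEAD words.
Acta1: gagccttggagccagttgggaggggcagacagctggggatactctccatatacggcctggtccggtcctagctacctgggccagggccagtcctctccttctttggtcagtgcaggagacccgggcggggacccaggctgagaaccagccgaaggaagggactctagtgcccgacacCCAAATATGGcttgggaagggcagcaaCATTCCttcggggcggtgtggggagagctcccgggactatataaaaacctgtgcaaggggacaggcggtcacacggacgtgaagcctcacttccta
Acta2: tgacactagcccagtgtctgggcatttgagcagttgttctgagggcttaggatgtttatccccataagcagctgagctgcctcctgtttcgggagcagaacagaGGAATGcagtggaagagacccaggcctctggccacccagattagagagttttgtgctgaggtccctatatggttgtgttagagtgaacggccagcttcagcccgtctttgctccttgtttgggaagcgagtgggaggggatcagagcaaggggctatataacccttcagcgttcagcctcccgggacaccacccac
Srf: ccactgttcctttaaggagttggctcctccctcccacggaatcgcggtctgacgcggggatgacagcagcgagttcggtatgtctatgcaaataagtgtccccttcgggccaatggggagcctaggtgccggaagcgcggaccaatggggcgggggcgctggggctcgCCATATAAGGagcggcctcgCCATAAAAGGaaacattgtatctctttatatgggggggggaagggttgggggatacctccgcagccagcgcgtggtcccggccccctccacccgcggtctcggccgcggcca
Ankrd1: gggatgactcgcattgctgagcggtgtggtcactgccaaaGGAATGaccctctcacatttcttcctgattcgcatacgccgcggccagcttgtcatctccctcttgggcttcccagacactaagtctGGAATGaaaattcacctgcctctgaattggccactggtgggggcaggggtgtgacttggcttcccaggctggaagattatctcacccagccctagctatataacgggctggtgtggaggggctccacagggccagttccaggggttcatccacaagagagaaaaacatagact

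The other CArG boxes are shown with 10 bases on either side so that the boxes can be compared letter by letter. Coordinates are GRCm38.p6 and capitals mark the box.
Myl9, chr2:156775293-156775322: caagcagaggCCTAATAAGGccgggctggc
Cnn2, chr10:79988534-79988563: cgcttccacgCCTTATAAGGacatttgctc
Myl6, chr10:128493040-128493069: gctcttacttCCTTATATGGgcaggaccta
Actg1, chr11:120348566-120348595: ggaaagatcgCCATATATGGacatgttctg
Vcl, chr14:20929161-20929190: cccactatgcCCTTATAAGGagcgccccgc
Fhl2, chr1:43196838-43196867: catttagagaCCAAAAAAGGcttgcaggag
Fhl2, chr1:43163973-43164002: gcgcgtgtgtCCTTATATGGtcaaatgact
Actc1, chr2:114052903-114052932: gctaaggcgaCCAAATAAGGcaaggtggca

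The labels were first checked on Dyrk2 and its pathway. Dyrk2 was at 0.57 FPKM in the knockout and 6.59 in wild type, and 0.81 with siDyrk2 and 7.06 with siNeg. The Hedgehog effector gene Gli1 was at 0.24 FPKM in the knockout and 28.81 in wild type, and 2.25 with siDyrk2 and 30.17 with siNeg. Estimated depth was 20000000 to 23900000 fragments per library. All 9 fibroblast markers were above 1 FPKM in every library. Markers of skeletal muscle were nearly absent, with 12 of 13 genes below 1 FPKM in all libraries and Myf5, Mymk and Ckm listed at 0 throughout. Of 9 cardiac markers 8 stayed below 1 FPKM, with Myh6, Myh7, Nkx2-5, Nppa and Myl7 listed at 0. The skeletal list summed to at most 2.22 FPKM in a library and the cardiac list to at most 2.47. The smooth muscle and pericyte list had 6 of 10 genes measured. It summed to 61.12 FPKM for the knockout and 69.24 for wild type, and to 78.25 for siDyrk2 and 65.76 for siNeg, while Myocd, the smooth muscle SRF cofactor, was at 0.05 FPKM or less. Its 6 measured genes were mixed in the knockout, with 4 lower (55.6% of all genes) and 2 higher. Their log2 ratios of FPKM + 1 ran from -1.12 to 0.73. With siDyrk2 5 of the 6 were above siNeg (54.3% of all genes) and 1 below, from -0.0036 to 0.86. Endothelial markers summed to at most 5.51 FPKM, mesothelial and epithelial ones to at most 14.44, neural ones to at most 28.61 and adipocyte ones to at most 95.73, the last in the knockout. The knockout library stood apart in several ways. The Y-linked gene Ddx3y was at 8.28 FPKM there and at 0.02 or less in the other 3, the 11 macrophage markers summed to 503 FPKM against 246 in wild type, and 20 G2/M genes to 67.2 against 177. With siDyrk2 the macrophage sum was 352 FPKM against 283 with siNeg, the G2/M sum 235 against 256, and the sum of the 9 fibroblast markers 6460 against 7835. The fibroblast list was split: 3 of 9 were higher with siDyrk2 (54.3% of all genes) and 6 lower (45%). By FPKM + 1, 2 of 9 were at least 1.5-fold higher (3.77% of all genes) and 0 were 1.5-fold lower (2.73%). The part of these differences in the results below was not tested, and in bulk RNA fewer cells of a type and less RNA per cell cannot be told apart.

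The knockout comparison asked how these genes stood in cells without Dyrk2. The members were mostly lower in the knockout. Of 38 genes 31 were lower than in wild type, where 55.6% of all measured genes were lower, 7 were higher (43.7% of all genes), and the median log2 ratio of FPKM + 1 was -0.24 against -0.02 for all genes. At least 1.5-fold lower on that scale were 7 of 38, where 4.04% of all genes were, and 0 of 38 were 1.5-fold higher (2.58% of all genes). On the same scale only the calponin gene Cnn1 was at least 2-fold lower (1.21% of all genes), and 0 of 38 were 2-fold higher (0.57%). By the ratio of FPKM alone Acta1 (0.467) also passed 2-fold. The genes nearest the 1.5-fold line were Tagln just past it (-0.63) and Actn1 just short of it (-0.47).

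The siRNA comparison asked the same of wild-type cells given an siRNA, and there the genes were mostly higher. With siDyrk2 32 of 38 genes were above siNeg, where 54.3% of all genes were, 6 were below it (45% of all genes), and the median log2 ratio was 0.20 against 0.02 for all genes. At least 1.5-fold higher on the FPKM + 1 scale were 8 of 38, where 3.77% of all genes were. On it 0 of 38 were 1.5-fold lower (2.73% of all genes). The count of 8 depended on low genes: it was 3 among the 33 genes with at least 10 FPKM in any library. The share of all genes was not computed at that filter. On the same scale Acta1 and Mylk were at least 2-fold higher (0.749% of all genes), and 0 of 38 were 2-fold lower (0.796%). By the ratio of FPKM alone Actg2 (2.05), Myh11 (2.20) and Des (2.62) also passed 2-fold. Tagln lay just past the 1.5-fold line (0.61) and Lmod1 just short of it (0.58).

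The 2 comparisons share no library and went in opposite directions for most members. Lower in the knockout and higher with siDyrk2 were 25 of 38 genes, where 26.4% of all measured genes were. The reverse pattern was held by 0 of 38 (15.8% of all genes), 6 were lower in both (28.9%) and 7 higher in both (27.6%). Across the 38 genes the Pearson correlation of both log2 ratios was -0.23 and the Spearman correlation -0.10, against 0.24 and 0.22 across all 12817 genes. These describe genes in 4 libraries, and genes are not replicates. The knockout was the lowest of the 4 libraries for 30 of 38 genes (32.5% of all genes) and siDyrk2 the highest for 31 (31.7%). Both held for 24 of 38 genes, where 14.2% of all genes had that order.

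**Figure D1:**
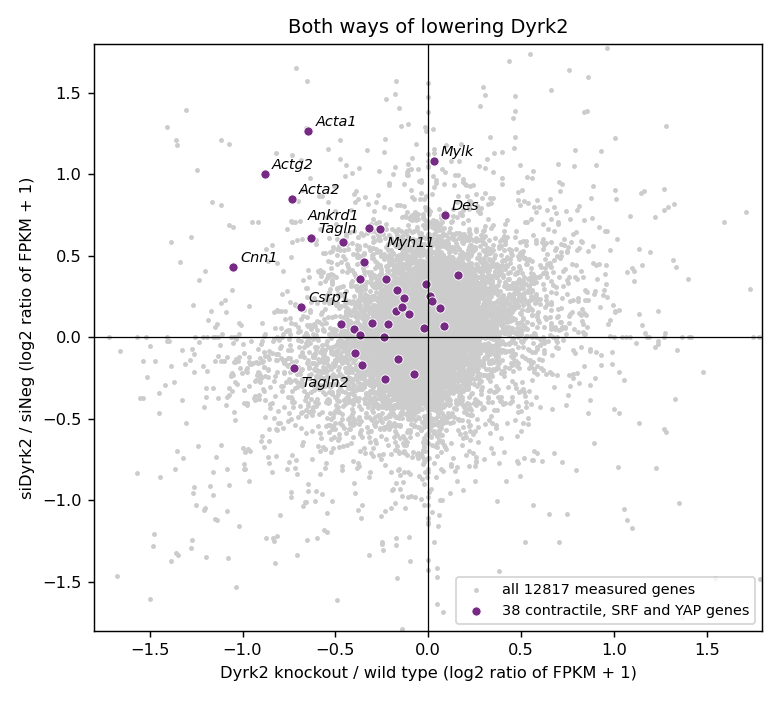
Each point is a gene, with the knockout against wild type on the x axis and siDyrk2 against siNeg on the y axis, both as log2 ratios of FPKM + 1. The 38 genes in purple lie mostly at the upper left, lower in the knockout and higher with siDyrk2, where 25 of them are, and 32 of the 12817 genes in grey lie outside the plotted range.

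The 3 measured muscle actins were at least 1.5-fold lower in the knockout and at least 1.5-fold higher with siDyrk2. Acta2 (ENSMUSG00000035783, chromosome 19, 34241090 to 34255590, GRCm38) encodes smooth muscle actin, the standard myofibroblast marker, and was at 322.19 FPKM in the knockout and 536.77 in wild type, and 1204.72 with siDyrk2 and 668.51 with siNeg. The siDyrk2 level was thus the highest, the knockout level the lowest and both controls lay between them. The FPKM ratio was 0.600 (0.589 to 0.612) for knockout over wild type and 1.802 (1.78 to 1.83) for siDyrk2 over siNeg, with exact 95% counting intervals in parentheses here and below. They take in the counting error alone.

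Actg2 (ENSMUSG00000059430, chromosome 6, 83512905 to 83536265), the enteric smooth muscle actin, was at 11.75 FPKM in the knockout and 22.47 in wild type, and 39.04 with siDyrk2 and 19.03 with siNeg. Its ratios were 0.523 (0.463 to 0.590) in the knockout and 2.05 (1.86 to 2.26) with siDyrk2, and the controls were close to each other. Acta1 (ENSMUSG00000031972, chromosome 8, 123891769 to 123894751), skeletal actin, was at 0.98 FPKM in the knockout and 2.10 in wild type, and 5.64 with siDyrk2 and 1.76 with siNeg. It held only 33, 77, 186 and 54 fragments in that order of libraries, and its ratios of 0.467 (0.302 to 0.713) and 3.20 (2.36 to 4.42) had wide intervals. The log2 ratios of the 3 genes were -0.73, -0.88 and -0.65 in the knockout for Acta2, Actg2 and Acta1, and 0.85, 0.999 and 1.27 with siDyrk2.

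The cytoplasmic actins of all cells differed less. Actb was at 559.19 FPKM in the knockout and 630.15 in wild type, and 972.05 with siDyrk2 and 869.48 with siNeg. Actg1 was at 127.95 FPKM in the knockout and 143.23 in wild type, and 182.05 with siDyrk2 and 199.72 with siNeg, and with siDyrk2 it was the only actin above 1 FPKM that lay below siNeg, at 0.912 (0.887 to 0.937) times its level. The share of Acta2 in the summed FPKM of the 6 actin genes was 31.5% in the knockout and 40.2% in wild type, and 50.1% with siDyrk2 and 38.01% with siNeg. Actb made up 54.7% and 47.2% in the knockout and in wild type, and 40.4% and 49.4% with siDyrk2 and with siNeg. The ratio of Acta2 to Actb was 0.576 in the knockout, 0.852 in wild type, 1.24 with siDyrk2 and 0.769 with siNeg, and it does not depend on scaling between libraries. Actin coding sequences are nearly alike, and how the authors placed fragments that fit several actins is not given in the sources used here, so the low values of Acta1 and Actc1 are the least certain.

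**Figure D2:**
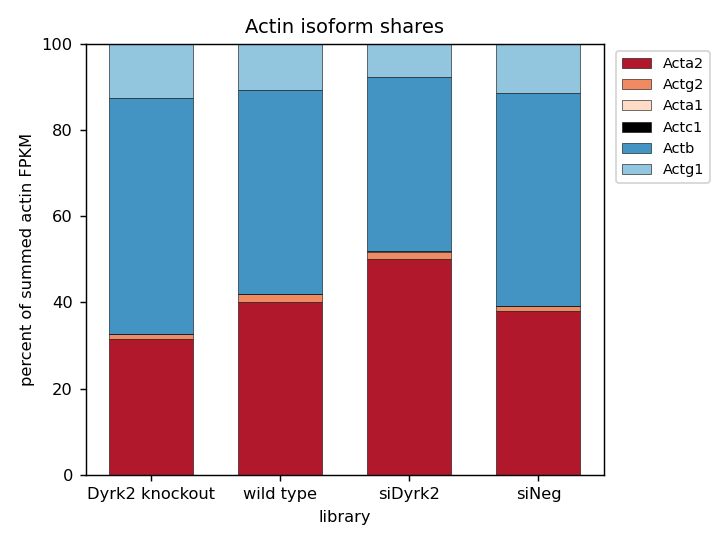
Stacked bars give each actin gene's percent of the summed actin FPKM in each library. Acta2 is 50.1% with siDyrk2, 31.5% in the knockout and 38.01% to 40.2% in the controls, while Acta1 and Actc1 are too low to see.

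Calponins and transgelins, which bind actin filaments, split by isoform. Cnn1 (ENSMUSG00000001349, chromosome 9, 22099216 to 22109630), the smooth muscle calponin, was at 4.86 FPKM in the knockout and 11.14 in wild type, and 12.20 with siDyrk2 and 8.80 with siNeg. The knockout was below the other 3 libraries, and its ratio to wild type was 0.436 (0.380 to 0.501); siDyrk2 over siNeg was 1.39 (1.23 to 1.56). Tagln (ENSMUSG00000032085, chromosome 9, 45929619 to 45936058), transgelin or SM22, was at 173.03 FPKM in the knockout and 268.26 in wild type, and 461.82 with siDyrk2 and 302.60 with siNeg, with ratios of 0.645 (0.627 to 0.664) and 1.53 (1.49 to 1.56). Its exons overlap those of Pcsk7 and Gm48529 on the opposite strand over 67.9% of their length, and those genes reached at most 6.23 FPKM.

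The isoforms of non-muscle cells were closer to siNeg, or below it, with siDyrk2. Tagln2 was at 58.74 FPKM in the knockout and 97.48 in wild type, and 99.50 with siDyrk2 and 113.25 with siNeg, so it was low in the knockout alone, with a ratio of 0.603 (0.575 to 0.632), and with siDyrk2 it was below siNeg at 0.879 (0.843 to 0.916). Cnn2, at a log2 ratio of -0.40 in the knockout, had one of 0.05 with siDyrk2. Cnn3 was nearly level, between 120.94 and 127.88 FPKM in the 4 libraries, and its small knockout difference changed sign under trimmed-mean scaling.

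**Figure D3:**
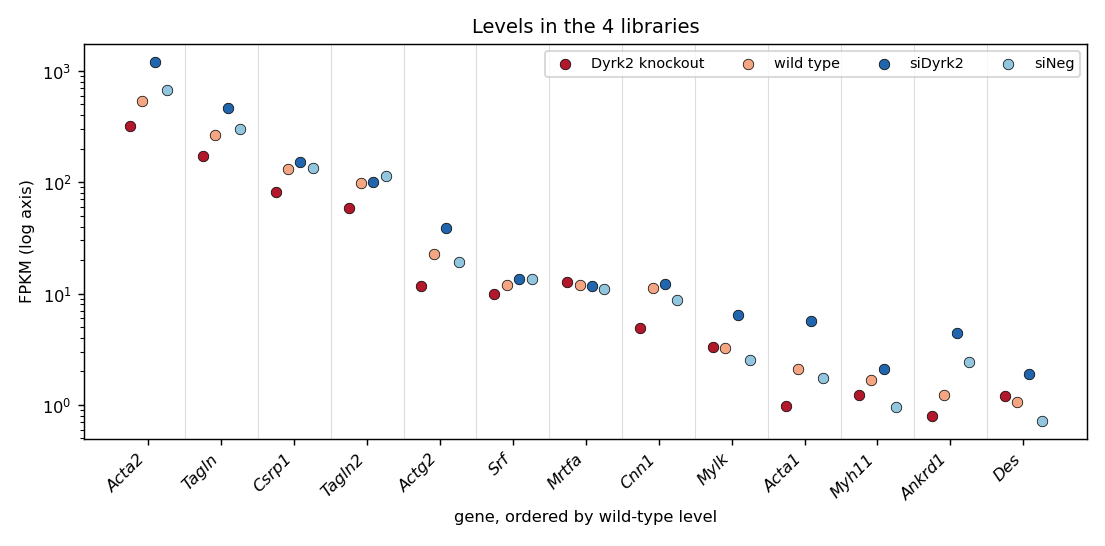
Points give FPKM on a log axis for the 11 genes at least 1.5-fold different by FPKM + 1 in either Dyrk2 comparison and for Srf and Mrtfa. The knockout is the lowest point for Acta2, Tagln, Csrp1, Tagln2, Actg2, Srf, Cnn1, Acta1 and Ankrd1, and siDyrk2 is the highest for 11 of the 13 genes, all but Tagln2 and Mrtfa.

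Among myosin genes the kinase stood out with siDyrk2. Mylk (ENSMUSG00000022836, chromosome 16, 34745210 to 35002420), myosin light chain kinase, was at 3.32 FPKM in the knockout and 3.23 in wild type, and 6.45 with siDyrk2 and 2.52 with siNeg. With siDyrk2 it was above the other 3 libraries, 2.56 (2.32 to 2.82) times siNeg, and in the knockout it was close to wild type, at 1.03 (0.934 to 1.13). Myh11 (ENSMUSG00000018830, chromosome 16, 14194535 to 14291372), the smooth muscle myosin heavy chain, was at 1.22 FPKM in the knockout and 1.66 in wild type, and 2.11 with siDyrk2 and 0.96 with siNeg, with a ratio of 2.20 (1.801 to 2.68) for siDyrk2. Here siNeg was the lowest library, and the ratio to wild type without siRNA was smaller, at 1.27 (1.08 to 1.49). The regulatory light chain gene Myl9 was at 125.19 FPKM in the knockout and 159.09 in wild type, and 288.86 with siDyrk2 and 209.25 with siNeg, in the same order as Acta2. The non-muscle heavy chains Myh9 (-0.30 in the knockout and 0.09 with siDyrk2, log2 ratios) and Myh10 (-0.22 and 0.08) and the essential light chain Myl6 (-0.17 and 0.29) were lower in the knockout and higher with siDyrk2, by less than Myl9 in both.

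Tropomyosins, which lie along the filament, and their partners were lower in the knockout in 5 of 5 (55.6% of all genes were) and higher with siDyrk2 in 4 of 5, a share not far from the 54.3% of all genes given so few members. Lmod1, the smooth muscle leiomodin that nucleates filaments, was at 5.74 FPKM in the knockout and 8.25 in wild type, and 13.67 with siDyrk2 and 8.79 with siNeg, with the siDyrk2 library the highest. Tpm4 was at 96.51 FPKM in the knockout and 113.34 in wild type, and 202.38 with siDyrk2 and 157.42 with siNeg, and both siRNA libraries were above both libraries without siRNA. Tpm1 and Tpm2 were at log2 ratios of -0.13 and -0.37 in the knockout and 0.24 and 0.36 with siDyrk2. Cald1, caldesmon, was lower in both, with log2 ratios of -0.35 and -0.17.

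Of 5 adhesion and crosslinking genes 4 were lower in the knockout and 3 were higher with siDyrk2, where 55.6% and 54.3% of all genes were. In the knockout the lowest log2 ratios were those of the alpha-actinins Actn1 (-0.47) and Actn4 (-0.40) and filamin Flna (-0.37). The fifth, the adhesion protein vinculin (Vcl), was at 53.46 FPKM in the knockout and 53.03 in wild type, and 64.59 with siDyrk2 and 53.91 with siNeg, level between the knockout and wild type. With siDyrk2 the log2 ratio of Vcl was 0.26, with Actn1 at 0.08, Flna at 0.02, Actn4 at -0.09 and zyxin (Zyx) at -0.26. The sign of Flna changed under trimmed-mean scaling. The exons of Vcl overlap the opposite-strand gene Ap3m1 over 25.5% of their length.

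Of the remaining cytoskeletal genes, Csrp1 was low in the knockout and Des high with siDyrk2. Csrp1 (ENSMUSG00000026421, chromosome 1, 135720061 to 135752232), a LIM protein of the actin cytoskeleton, was at 82.16 FPKM in the knockout and 132.86 in wild type, and 153.27 with siDyrk2 and 134.60 with siNeg, so the knockout stood apart from 3 similar libraries with a ratio of 0.618 (0.593 to 0.645). Des, the muscle intermediate filament desmin, was at 1.19 FPKM in the knockout and 1.06 in wild type, and 1.89 with siDyrk2 and 0.72 with siNeg, and its siDyrk2 ratio of 2.62 (1.91 to 3.64) rested on 152 against 54 fragments. The LIM genes Pdlim7 and Fhl2 were at log2 ratios of -0.14 and 0.02 in the knockout and at 0.19 and 0.22 with siDyrk2. Synpo2, below the 1 FPKM limit, was at 0.36 FPKM in the knockout and 0.34 in wild type, and 0.81 with siDyrk2 and 0.51 with siNeg.

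The transcription factor itself differed little. Srf (ENSMUSG00000015605, chromosome 17, 46548329 to 46556175) was at 9.94 FPKM in the knockout and 11.92 in wild type, and 13.55 with siDyrk2 and 13.51 with siNeg, a ratio of 0.834 (0.751 to 0.926) in the knockout and of 1.003 (0.909 to 1.11) with siDyrk2. Mrtfa, its actin-regulated cofactor, was at 12.66 FPKM in the knockout and 11.86 in wild type, and 11.69 with siDyrk2 and 11.08 with siNeg, and both its intervals, 1.07 (0.998 to 1.14) and 1.06 (0.981 to 1.14), spanned 1. The 8 measured genes with an exact CArG box in their window had a median log2 ratio of -0.20 in the knockout and 0.24 with siDyrk2. The 26 with a window but no exact box had -0.23 and 0.18. Acta2 was counted among these 26, though its window holds ccctatatgg and ccttgtttgg, which each miss the pattern by a letter. The split thus depends on the exact pattern and does not show which genes lack an SRF site. Among the genes with a box printed above, the siDyrk2 log2 ratio of Acta1 was 1.27, with Myl9 at 0.46, Myl6 at 0.29, Vcl at 0.26, Fhl2 at 0.22, Cnn2 at 0.05, Srf at 0.00 and Actg1 at -0.13. The sign of Srf there changed with the scaling.

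Of 6 YAP and TEAD targets 4 were lower in the knockout (55.6% of all genes), with a median log2 ratio of -0.04, and 5 were higher with siDyrk2 (54.3%), with a median of 0.25. With siNeg 5 of the 6 were also above wild type (48.3% of all genes), with a median of 0.07. Ankrd1 (ENSMUSG00000024803, chromosome 19, 36111961 to 36120099), a muscle ankyrin repeat protein, was at 0.79 FPKM in the knockout and 1.23 in wild type, and 4.47 with siDyrk2 and 2.43 with siNeg. It held 50, 85, 277 and 140 fragments in that order, and its ratios were 0.642 (0.444 to 0.923) and 1.84 (1.497 to 2.27). Amotl2, an angiomotin that restrains YAP, was at 49.48 FPKM in the knockout and 44.13 in wild type, and 49.78 with siDyrk2 and 38.02 with siNeg, higher in both comparisons. The Hippo kinase gene Lats2, itself a YAP target, had log2 ratios of -0.01 for the knockout and 0.33 for siDyrk2, its knockout sign changed under trimmed-mean scaling, and the same-strand gene model Gm49361, listed at 0 FPKM, overlaps 42.4% of its exons. In the same order and scale the receptor kinase Axl was at 0.06 and 0.18, the growth factor binding protein Crim1 at -0.11 and 0.14, and the LIM protein Ajuba at -0.08 and -0.23. The 17 measured genes with a TEAD word had a median log2 ratio of -0.22 in the knockout and 0.24 with siDyrk2, and the 17 with a window and no such word had -0.24 and 0.19.

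**Figure D4:**
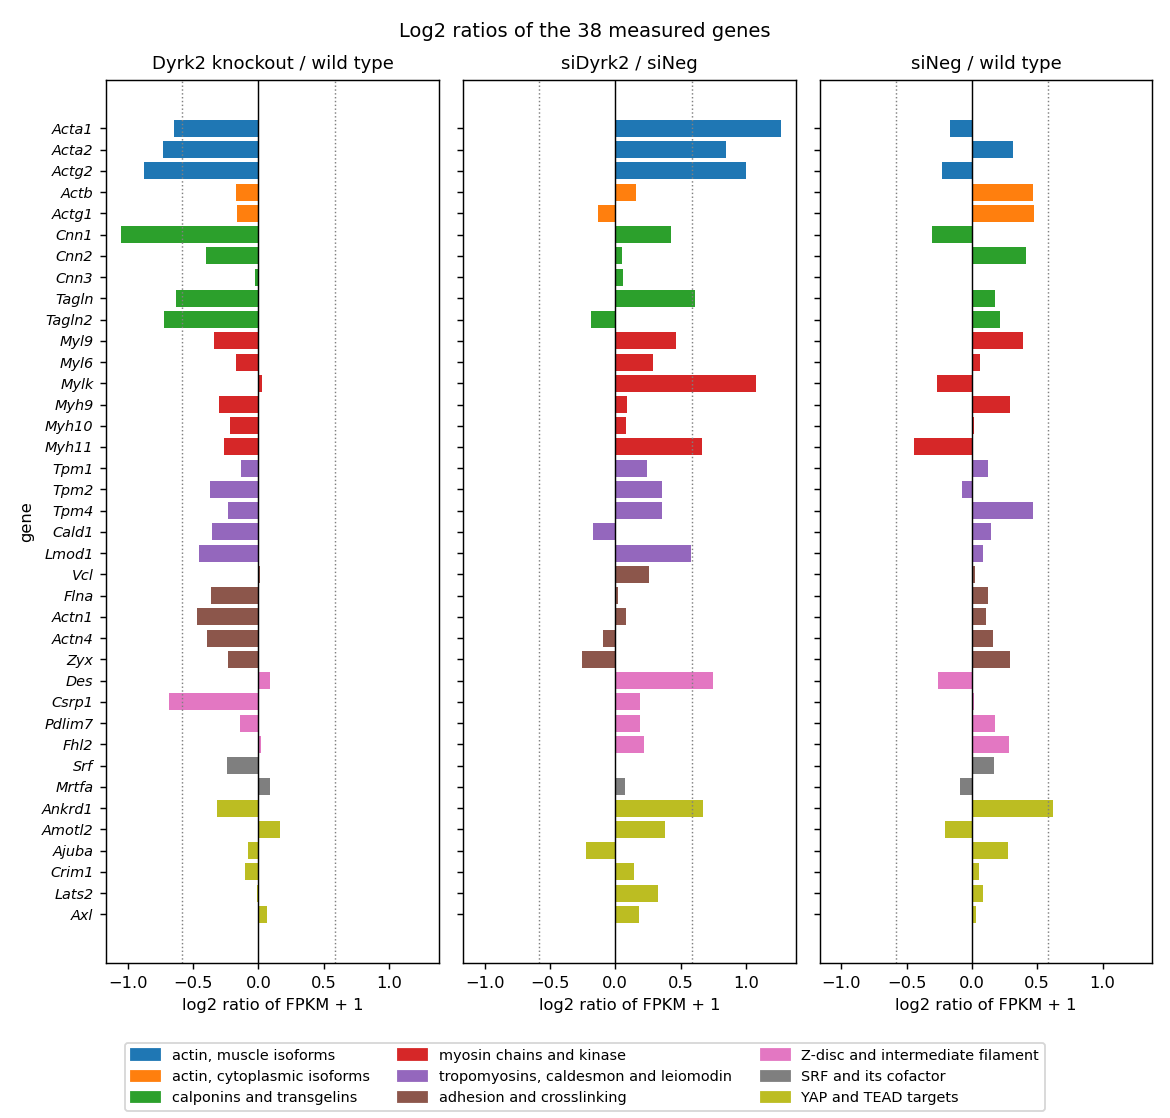
Bars give log2 ratios of FPKM + 1 for the 38 genes, coloured by role, in the 3 comparisons, with dotted lines at 1.5-fold. Bars point left for 31 genes in the knockout comparison and right for 32 in the siDyrk2 comparison, and muscle actins are long in both.

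Between the controls, the siNeg library was set against wild type without siRNA. With siNeg 28 of 38 genes were higher, where 48.3% of all genes were, 10 were lower (51% of all genes), and the median log2 ratio was 0.11 against -0.01. On the FPKM + 1 scale only Ankrd1 was at least 1.5-fold higher (1.41% of all genes) and 0 of 38 were 1.5-fold lower (2.37%). A 2-fold difference was reached by 0 of 38 in either direction (0.367% of all genes higher and 0.562% lower). Of the 28 genes with a mean of 15 FPKM or more over the 4 libraries 24 were higher with siNeg (median 0.15), and of the 10 with a lower mean 4 were higher (median -0.13). After Ankrd1 the highest log2 ratios were 0.48 for Actg1, 0.47 for Tpm4 and 0.46 for Actb, and the lowest were -0.44 for Myh11, -0.31 for Cnn1 and -0.27 for Mylk. With siNeg 19 of 19 measured G2/M genes were also higher than in wild type (median 0.49, summed 256 against 177 FPKM), as were 10 of 10 measured macrophage markers (median 0.35, summed 283 against 246 FPKM), and their part in these differences was not tested. This comparison shares siNeg with the siRNA comparison and wild type with the knockout comparison.

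The other control library was also used for each. Against wild type without siRNA, siDyrk2 was higher in 36 of 38 genes (52.1% of all genes were), all but Cald1 and Mrtfa. Acta2 was then at a log2 ratio of 1.16, Ankrd1 at 1.29, Acta1 at 1.10, Mylk at 0.82, Tagln at 0.78 and Actg2 at 0.77. Cnn1 and Myh11 were closer to wild type than to siNeg, at 0.12 and 0.23. Against siNeg, the knockout was lower in 32 of 38 genes (51.3% of all genes), with log2 ratios of Acta2 at -1.05 and Tagln2 at -0.94, while Myh11 was at 0.18 and Mylk at 0.30, both above siNeg.

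Other genes of the same pathways were read from lists chosen by function. The 22-gene YAP signature, known from human tumours and sharing 5 genes with the members, had 20 genes measured. Of these 12 were lower (55.6% of all genes) and 8 higher in the knockout, with a median log2 ratio of -0.02, and 16 were higher with siDyrk2 (54.3% of all genes), with a median of 0.25. The tissue factor gene F3 was high in both (50.78 FPKM in the knockout and 26.12 in wild type, and 64.23 FPKM with siDyrk2 and 28.50 with siNeg). The matricellular genes Ccn2 (32.42 FPKM in the knockout and 47.00 in wild type, and 83.25 FPKM with siDyrk2 and 63.29 with siNeg) and Ccn1 (-0.31 and 0.54, log2 ratios) had the signs of Acta2, and Nuak2, a kinase, had log2 ratios of -0.40 and -0.11. Tgfb2, a TGF-beta ligand, was at 8.10 FPKM with siDyrk2 and 4.65 with siNeg.

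The Hippo core list had 20 of 21 genes measured, and 16 of them were lower with siDyrk2 (45% of all genes), with a median of -0.13, against a median of 0.01 in the knockout. Wwtr1, which encodes TAZ, was at 53.65 FPKM in the knockout and 44.80 in wild type, and 24.32 with siDyrk2 and 41.88 with siNeg, low with siDyrk2 alone. Mob1a, the LATS coactivator, was at 55.00 FPKM in the knockout and 55.47 in wild type, and 34.29 with siDyrk2 and 53.88 with siNeg, and the upstream kinase gene Stk4 at 6.94 FPKM in the knockout and 6.69 in wild type, and 5.11 with siDyrk2 and 8.75 with siNeg. Of the 20 measured genes only those 3 were at least 1.5-fold lower with siDyrk2 (2.73% of all genes). The transcript of YAP itself (Yap1) was at a log2 ratio of -0.22 there and those of Tead1 and Tead2 at -0.07 and 0.01. The knockout log2 ratios of largest size were -0.26 for Wwc1, 0.25 for Wwtr1 and 0.25 for Amot. In siNeg against wild type Tead4 (0.58), Vgll3 (-0.41) and Wwc1 (0.38) differed the most. Lats1 was listed at 0.02 FPKM or less in all libraries, and since the authors' gene models and counting are not known no level of the gene is read from this.

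The regulators upstream of SRF were close to level. Of 24 measured genes 16 were lower in the knockout (55.6% of all genes, list median -0.05) and 12 with siDyrk2 (45% of all genes, list median -0.01). The formin gene Diaph3 was at 2.32 FPKM in the knockout and 5.44 in wild type, and is the only gene of this list at least 1.5-fold different in any of the 3 comparisons. On the log2 ratio scale Rhob was at -0.33 and profilin (Pfn1) at -0.19 in the knockout. The actin monomer-binding thymosin Tmsb4x was at 476.02 FPKM with siDyrk2 and 335.36 with siNeg. The siDyrk2 log2 ratio of Limk1, a kinase that inactivates cofilin, was 0.38. Between the controls Ssh3 (-0.42), Scai (-0.35) and Diaph3 (0.34) led.

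A further list of 30 contractile and focal adhesion genes had medians closer to 0 than the members in the same comparisons. In the knockout 19 were lower (55.6% of all genes, list median -0.07), and the log2 ratio was 0.29 for Csrp2, which was higher, and -0.26 for Pdlim2. With siDyrk2 17 were higher (54.3% of all genes, list median 0.07), among them Pdlim1 (8.06 FPKM with siDyrk2 and 4.89 with siNeg) and Ppp1r14a (log2 ratio 0.53), an inhibitor of myosin phosphatase. Between the controls Itga5 (0.41), Nexn (0.41) and Pdlim1 (0.38) led.

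**Figure D5:**
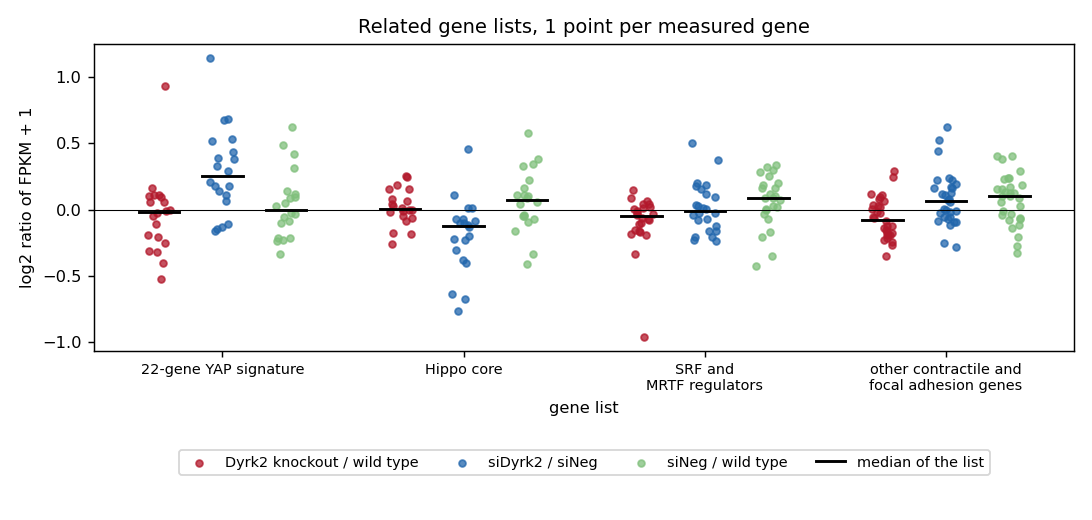
Points give the log2 ratio of FPKM + 1 of every measured gene of 4 related lists in the 3 comparisons, and bars the list medians. The YAP signature has its highest median with siDyrk2 (0.25) and the Hippo core its lowest (-0.13), and the other medians lie between -0.07 and 0.10.

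Genes of the TGF-beta response, which also drives smooth muscle actin, were mixed. Of 15 measured, 7 were higher in the knockout (43.7% of all genes, list median -0.06) and 8 with siDyrk2 (54.3% of all genes, list median 0.05). The matrix protein gene Tgfbi, with the largest knockout ratio of the list, was at 20.90 FPKM in the knockout and 9.96 in wild type, and 12.68 with siDyrk2 and 17.53 with siNeg. The ligand gene Tgfb3 had the signs of Acta2, with log2 ratios of -0.48 for the knockout and 0.54 for siDyrk2, while Smad3, a transducer, was lower in both (log2 ratios -0.32 and -0.61). The part of these genes in the contractile differences was not tested.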

How the data were processed

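Per the labels' protocols, total RNA was column-purified with DNase treatment and made into stranded, polyA-selected libraries. Tools listed in the submitters' processing notes are cutadapt 1.9.1 and HISAT2 2.0.1, with the build GRCm38 and no order or settings. For counting, the program, strand setting and gene annotation were not given in the sources used here. Each deposited file holds FPKM to 2 decimals, and FPKM times length in kilobases summed to 999996 to 1000003 per library. The files also give each gene's exonic length, per the file headers.

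Of 55573 identifiers 55480 matched GENCODE M21, which gave symbols and coordinates, and 4 older symbols were matched through RefSeq synonyms. Depth was estimated from the steps of FPKM in genes of at most 200 bases: at the estimates of 21900000 fragments for the knockout, 23900000 for wild type, 21500000 for siDyrk2 and 20000000 for siNeg, 99.7% to 100% of 341 to 402 such genes lay on whole fragments within rounding. A floor of 3 fragments in a gene of 2 kb is 0.0627 to 0.0751 FPKM. Intervals are exact 95% Clopper-Pearson intervals on these fragments and were tested on simulated data.

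Log2 ratios use FPKM + 1, which understates differences of low genes. Genes were measured if at least 1 FPKM in any library. With 1 library per group a gene counts as different past 1.5-fold or 2-fold on that scale, and member counts stand beside the same share of all measured genes. Named with all 4 values are members at least 1.5-fold different in either Dyrk2 comparison, Srf and Mrtfa, and others by role; up to 3 genes per comparison were named from each related list, some genes of these lists are not reported here, and Yap1, Tead1, Tead2, Ccn1 and Ddx3y and the genes of the TGF-beta list were named after their values were seen. The members and lists were chosen with earlier results of these data known. Alternatives changed the pseudocount, filter, scaling, background and control library. Python 3.11.15, SciPy 1.17.1 and pandas 2.3.3 were used.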

Additional observations from a re-analysis of the deposited data

Results flagged for a closer look

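Of the 38 genes 25 were lower in the knockout and higher with siDyrk2, where 26.4% of all genes were. Another 6 were lower in both comparisons (28.9%) and 7 higher in both (27.6%). The further list of 30 contractile and focal adhesion genes had medians of only -0.07 in the knockout and 0.07 with siDyrk2. With 1 library a group the contrast between the 2 ways of lowering Dyrk2 was not tested. The knockout log2 ratio minus the siDyrk2 log2 ratio was -1.91 for Acta1, -1.88 for Actg2, -1.58 for Acta2 and -1.24 for Tagln. On the FPKM + 1 scale these were the 4 genes at least 1.5-fold lower in the knockout and 1.5-fold higher with siDyrk2. Taken singly, those rules were met by 4.04% and 3.77% of all genes. The share of all genes that met both was not computed, so how unusual that count is cannot be read. For the whole list the difference of the medians was -0.44. The knockout library also differed in G2/M and macrophage genes and in Ddx3y, with values given above, and the part of these in the contrast was not tested.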

How the results depend on the processing

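The median log2 ratio of the 38 genes kept its sign in each of the 3 comparisons under the other pseudocounts, filters and scalings tried, and in both Dyrk2 comparisons with the other control library. The related lists were not recomputed under other pseudocounts, filters or scalings. With wild type as the control of siDyrk2, the median of the SRF and MRTF regulators was 0.05, against -0.01 with siNeg. With siNeg as its control, the knockout had a median log2 ratio of -0.49 and 13 genes at least 1.5-fold lower, against -0.24 and 7 with wild type. Of all genes 51.3% were below siNeg in the knockout, but their median and 1.5-fold share were not computed for this pair. The larger count is thus not set against all genes. With siDyrk2 the count of 8 genes at least 1.5-fold higher became 5 with a pseudocount of 5 and 3 with a filter of 10 FPKM. The shares of all genes were not computed at those settings. For siNeg against wild type, 1 gene was at least 1.5-fold lower with a pseudocount of 0.1 or with none, against 0, and 0 were 1.5-fold higher with a pseudocount of 5 or a filter of 10 FPKM, against 1. Among protein-coding genes alone, 2.46% were at least 1.5-fold higher with siDyrk2 than with siNeg, against 3.77% of all genes. With siNeg, 0.602% were 1.5-fold higher and 1.44% lower than in wild type, against 1.41% and 2.37% of all genes. Trimmed-mean scaling changed the sign of 2 of 38 members in each Dyrk2 comparison, Cnn3 and Lats2 in the knockout and Flna and Srf with siDyrk2, all near 0. No paired analysis was possible because each group held 1 library. Depth limits Acta1, Ankrd1, Des and Myh11 the most.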
